A study of Mus musculus with 15 samples.

Results

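Erythroid transcription factors and cofactors are described here through 8 genes, Gata1, Klf1, Tal1, Gfi1b, Zfpm1, Nfe2, Lmo2 and Lyl1, chosen by symbol from the 14801 genes of the deposited expression table. All 8 were in the table and all 8 passed the filter on low values, as did 14161 of the 14801 genes. Healthy mice gave the fresh marrow, from which 5 cell populations were isolated by fluorescence-activated sorting and sequenced as 3 libraries each. The populations are labelled CMP (the usual abbreviation for common myeloid progenitor), CD115plusGMP (granulocyte and monocyte progenitors labelled as positive for CD115, the receptor for the growth factor CSF1), PreNeut_Neutrophil, ProNeut_Neutrophil and Neutrophil. The last 3 are called PreNeut, ProNeut and Neutrophil below. The series title names an early neutrophil-only progenitor of mouse and human marrow as its subject. The labels used here carry no drug treatment, genotype, strain, sex, age or sort gates. Whether each library had its own mouse is likewise not in the labels, so p-values measure how these libraries vary, and that variation may be technical.

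Red cell formation is run by a small set of DNA-binding proteins and the adaptors that hold them together. GATA1 binds the letters GATA and is held by the cofactor FOG1, the product of Zfpm1. KLF1 binds CACCC boxes of globin and other red cell genes. TAL1 and its relative LYL1 are helix-loop-helix proteins that pair with E proteins and reach GATA1 through the LIM-domain bridge LMO2 and its partner LDB1. GFI1B is a zinc-finger repressor that recruits a histone demethylase complex, and NFE2 (the p45 subunit of NF-E2) pairs with small MAF proteins at globin and platelet genes. Outside the red cell lineage, GATA1, GFI1B, TAL1 and NFE2 also act in megakaryocytes, and TAL1, LMO2 and LYL1 act in stem and early progenitor cells.

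The genes lie at separate loci of the GRCm38 build (GENCODE M21 annotation). Gata1 is at chrX:7959260-7978071 on the reverse strand, Tal1 at chr4:115056426-115071755 on the forward strand and Zfpm1 at chr8:122282141-122337251 on the forward strand. Gfi1b is at chr2:28609450-28621982 on the reverse strand, Lmo2 at chr2:103957986-103981878 on the forward strand and Nfe2 at chr15:103248212-103258403 on the reverse strand. Lyl1 at chr8:84701457-84704715 and Klf1 at chr8:84901928-84905291 are neighbours on the forward strand, 197213 bases apart. The exons of 7 of the genes share no base with a gene on the opposite strand, and those of Lyl1 share 4 bases with Nfix.

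Promoter windows from RefSeq (assembly GRCm38.p6) matched 6 of the 8 genes, all but Nfe2 and Lmo2. For Gata1, Klf1, Tal1 and Gfi1b, 4 of the 5 genes called lower in both comparisons with CMP, the 250 bases before the annotated starts are shown, 5′ to 3′ in the direction of transcription. The Klf1 sequence stops after 196 bases, where a GENCODE exon begins. Capitals mark matches to the hexamer AGATAA, to the hexamer TGATAA and to CACCC, searched on both strands, so that a match on the opposite strand shows as its reverse complement. The motifs did not overlap one another in these windows.
Klf1 (chr8:84901732-84901927, forward strand): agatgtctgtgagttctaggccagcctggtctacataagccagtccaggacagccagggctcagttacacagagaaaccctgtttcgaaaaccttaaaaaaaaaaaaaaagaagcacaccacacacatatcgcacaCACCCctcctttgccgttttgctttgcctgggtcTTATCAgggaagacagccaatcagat
Gfi1b (chr2:28621983-28622232, reverse strand): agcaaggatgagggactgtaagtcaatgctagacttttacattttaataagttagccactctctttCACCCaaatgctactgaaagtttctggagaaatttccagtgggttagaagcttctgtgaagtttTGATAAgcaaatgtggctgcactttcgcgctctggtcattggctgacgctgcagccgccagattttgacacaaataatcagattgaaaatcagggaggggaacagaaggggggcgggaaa
Tal1 (chr4:115056176-115056425, forward strand): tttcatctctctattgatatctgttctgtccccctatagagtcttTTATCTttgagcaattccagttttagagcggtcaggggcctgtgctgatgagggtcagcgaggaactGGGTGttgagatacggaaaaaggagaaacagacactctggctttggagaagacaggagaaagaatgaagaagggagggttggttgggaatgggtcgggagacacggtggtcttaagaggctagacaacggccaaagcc
Gata1 (chrX:7967911-7968160, reverse strand): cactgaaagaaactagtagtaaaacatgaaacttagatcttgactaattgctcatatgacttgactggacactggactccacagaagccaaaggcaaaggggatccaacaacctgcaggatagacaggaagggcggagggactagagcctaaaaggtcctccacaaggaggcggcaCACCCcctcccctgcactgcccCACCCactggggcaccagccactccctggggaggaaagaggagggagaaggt
The hexamers, the core of the sequence that GATA factors bind, occurred once in the windows of Klf1, Gfi1b and Tal1, starting 80, 120 and 205 bases before the RefSeq start. They were not found in these windows of Gata1, Zfpm1 and Lyl1, nor in a second, downstream Tal1 window. Of 32851 windows of the same length in the RefSeq table, 16.6% held a hexamer match. CACCC matched in the windows of all 6 genes (1 match each in Klf1, Gfi1b and the first Tal1 window, 2 in Gata1, 3 in Zfpm1 and 4 in Lyl1), against 52% of all windows. A match describes the letters only, and binding was not measured.

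The libraries fell into sets that cannot be compared directly. The 9 of CMP, CD115plusGMP and Neutrophil held 810794 to 1444403 reads in the table, and the 6 of PreNeut and ProNeut held 7493694 to 68171606. The 503 rows that carry no symbol took 55.6 to 69.5% of first-set reads, while second-set libraries had 0.102 to 0.146% there. The mitochondrial gene ND6, the only one of the 13 protein-coding genes on the other strand, took 69.1 to 93.3% of mitochondrial mRNA reads in first-set libraries and only 0.154 to 0.230% in the deeper ones. First-set libraries held 9651 reads of Tsix, which is antisense to Xist, and 535 of Xist, whereas second-set libraries held 30 and 43. At these loci, first-set reads were thus assigned mainly to the strand opposite to most mitochondrial genes and to Xist. The strand setting of the counting is not given in the sources used here and was not tested. First-set values, low counts included, are therefore best read as values of the locus. Set and population cannot be told apart, and comparisons were made within a set only. The 16 neutrophil marker genes summed to 40.4 to 48.3 CPM (reads scaled to library size) in CMP, with Elane, Ly6g and Mmp9 at 0 reads, and to 11411 to 39346 in Neutrophil. In PreNeut and ProNeut they summed to 78942 to 125250.

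The 8 genes divided into 5 that were detected well in CMP and hardly in the other populations of that set, and 3 with reads in all 15 libraries. The first 5 were Gata1, its cofactor gene Zfpm1, Klf1, Tal1 and Gfi1b. The 3 others were Nfe2, Lmo2 and Lyl1. Levels below are log2 CPM as deposited, in which 0.5 reads are added before scaling, so a gene without reads has a different log2 value in each library (-1.31 to 0.63 in first-set libraries, -8.14 to -4.90 in the others). Differences are on the same scale, and for genes near 0 reads their size depends on the depth of the libraries. In the second set the low value of a gene without reads in the deepest library, PreNeut replicate 3 (-8.14), enlarges them. A gene was called where limma's test gave a Benjamini-Hochberg adjusted p under 0.05 over 14161 genes and a difference of at least 1.

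**Figure D1:**
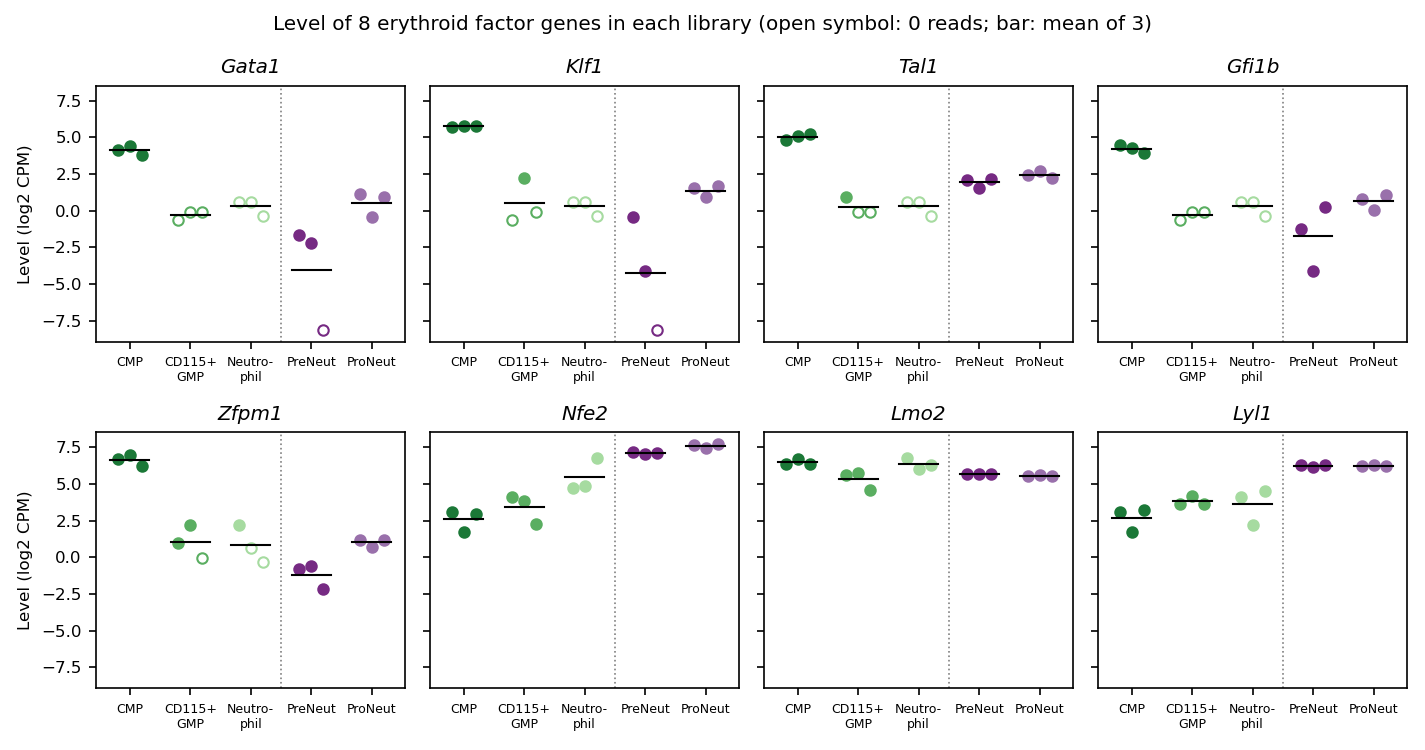
Level (log2 CPM) of each of the 8 genes in the 15 libraries, with a bar at the mean of 3, open symbols for 0 reads, and a dotted line between the library sets. In Gata1, Klf1, Tal1, Gfi1b and Zfpm1 the 3 CMP libraries lie above every other library, while Nfe2 and Lyl1 are highest in the PreNeut and ProNeut libraries, which belong to another set.

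The comparison of CD115plusGMP with CMP sets 2 populations labelled as progenitors side by side. Mpo, a neutrophil marker sharing 512 exon bases with the opposite strand, had 1, 7 and 5 reads in CMP. In CD115plusGMP it had 371, 129 and 149. Cd34, with 148 such bases, had 2, 1 and 7 reads in CMP and 23, 4 and 3 in CD115plusGMP. Kit had 10, 7 and 6 against 7, 1 and 2. The 11 stem and multipotent progenitor genes summed to 28.4 to 33.0 CPM in CMP and 18.8 to 50.7 in CD115plusGMP. How far the CMP cells match their label was not tested. In CD115plusGMP, 6 of the 8 genes were called lower and none higher, while 4.56% of all genes tested were called lower and 8.08% higher (12.6% in either direction). The median difference was -4.45 over the 8 genes and 0.26 over all genes. Gata1 and Gfi1b had no reads in CD115plusGMP, Tal1 had 1, Klf1 had 2 and Zfpm1 had 3 in 3 libraries together. In bulk populations, fewer cells of a type and less RNA per cell cannot be told apart.

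Gata1, the master regulator of red cell and megakaryocyte genes, had 15, 22 and 17 reads in the 3 CMP libraries (log2 CPM 4.16, 4.41 and 3.82) and 0 in each CD115plusGMP library. The difference was -4.39 ± 1.18 (SE, n = 3 and 3 libraries; limma adjusted p = 0.02). Against a floor of 3 reads over the group, Gata1 was at least 10.4-fold lower. Its call was lost without any 1 library except CD115plusGMP replicate 3 (adjusted p = 0.0504 to 0.0688), with the difference between -4.55 and -4.21. The error was set in part by the PreNeut libraries, in which the SD of Gata1 was 3.59 against 0.30 in CMP. With the 9 libraries of the first set alone, limma's adjusted p was 0.0011.

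Zfpm1, which encodes the GATA1 cofactor FOG1, had 89, 133 and 94 reads in CMP (log2 CPM 6.69, 6.98 and 6.25) and 1, 2 and 0 in CD115plusGMP. The groups did not overlap, and the difference of -5.60 ± 0.70 was the largest in size among the 8 genes in this comparison (limma adjusted p = 4.6e-05). In reads scaled to library size, CMP exceeded CD115plusGMP by a ratio of 60.8 (95% interval 20.6 to 296, counting error only). Klf1, the activator of adult globin genes, had 44, 57 and 69 reads in CMP (5.68, 5.77 and 5.81) and 0, 2 and 0 in CD115plusGMP. It fell by 5.24 on the log2 scale (SE 1.29, limma adjusted p = 0.013), a ratio of 49.0 in reads (13.4 to 408). The Klf1 call was lost without CD115plusGMP replicate 1 (-4.67, limma adjusted p = 0.054).

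Tal1 had 24, 36 and 47 reads in CMP (log2 CPM 4.82, 5.11 and 5.26) against 1, 0 and 0 in CD115plusGMP. The difference was -4.79 ± 0.48 (limma adjusted p = 4.6e-06), and the read ratio was 61.7 (10.8 to 2460). Gfi1b, the repressor gene, had 19, 20 and 19 reads in CMP (4.49, 4.28 and 3.97) and none in CD115plusGMP, a difference of -4.51 ± 0.80 (limma adjusted p = 0.0011) and at least 11.2-fold. For both genes every CMP library lay above every CD115plusGMP library, and no left-out library ended the call.

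Lmo2, the LIM-domain bridge, stayed well detected in both groups. It had 72, 108 and 103 reads in CMP (log2 CPM 6.39, 6.68 and 6.38) and 38, 28 and 12 in CD115plusGMP (5.65, 5.74 and 4.57), with CD115plusGMP replicate 3 the lowest. The groups did not overlap, and the difference of -1.16 ± 0.32 was called (limma adjusted p = 0.024), a read ratio of 2.09 (1.62 to 2.73). The call was lost without CD115plusGMP replicate 3 (-0.79, adjusted p = 0.098), without any 1 CMP library (0.0515 to 0.0914), with the first set alone (0.096) and with voom weights (0.069).

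Nfe2 and Lyl1 were not called. Nfe2 had 7, 3 and 9 reads in CMP and 13, 7 and 2 in CD115plusGMP, and its groups overlapped (difference 0.81 ± 0.57, limma adjusted p = 0.4). Lyl1, the relative of Tal1, had 7, 3 and 11 reads in CMP (log2 CPM 3.12, 1.73 and 3.21) and 9, 9 and 6 in CD115plusGMP (3.63, 4.16 and 3.63). All 3 CD115plusGMP libraries lay above the CMP libraries for Lyl1, but the difference of 1.12 ± 0.54 did not pass (limma adjusted p = 0.21). Tal1 and Lyl1, which encode related proteins, thus had 107 and 21 reads in CMP and 1 and 24 reads in CD115plusGMP.

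**Figure D2:**
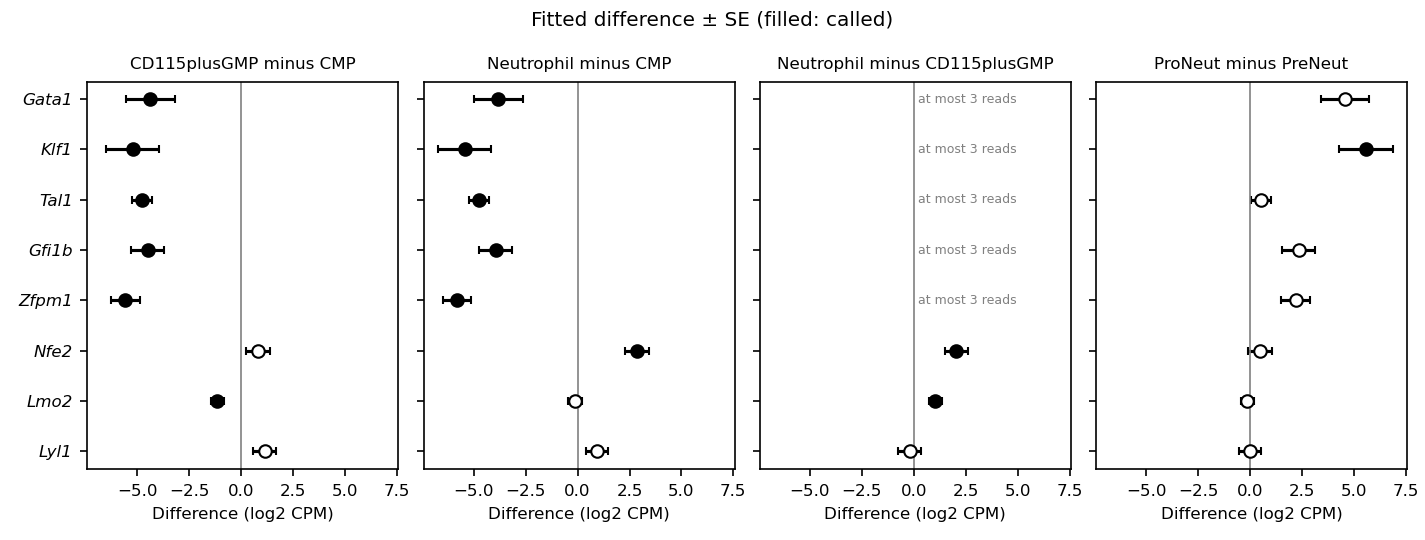
Fitted difference in log2 CPM with its standard error for each gene in the 4 comparisons, with filled symbols for called genes. The 5 genes from Gata1 to Zfpm1 lie between -5.80 and -3.82 in both comparisons with CMP. Nfe2 is called higher in Neutrophil, and Klf1 alone is called in ProNeut minus PreNeut. No difference is drawn where both groups had at most 3 reads.

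Genes whose products join these complexes were called lower in 3 of 23 and higher in 0, with a median of -0.53, against 4.56% and 8.08% of all genes tested. The number of partners called lower was 1 with the first set alone and 5 with table totals. Ldb1, which ties LMO2 to its partners, had 204 reads in CMP and 31 in CD115plusGMP (-2.16 ± 0.43, limma adjusted p = 0.0028), and its exons share 177 bases with a gene on the opposite strand. Gata2, the GATA factor of early progenitors, had 12 reads against 0 (-2.21 ± 0.53, adjusted p = 0.011, at least 2.31-fold). The third was Ssbp2, an LDB1-binding protein gene with 29 reads against 3, whose exons share 1765 bases with the opposite strand. Lmo4, a gene of the same LIM-only family as Lmo2, was at 4 reads in CMP and 14 in CD115plusGMP and was not called (2.30 ± 0.85, adjusted p = 0.092).

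Other red cell regulators were called lower in 1 of 19 and higher in 1, against the same 4.56% and 8.08%. With table totals 8 were lower and 0 higher. Hemgn, which encodes the nuclear protein hemogen, had 98, 96 and 123 reads in CMP and 0, 1 and 0 in CD115plusGMP (-6.39 ± 0.56, limma adjusted p = 1.4e-06). Klf13, a KLF1 relative, was higher (1.63 ± 0.43, adjusted p = 0.019), although its groups overlapped. Foxo3 (-2.06, adjusted p = 0.083) and Tfdp2 (-2.05, 0.081) did not pass.

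Of 25 red cell effector genes tested (membrane, heme and carbonic anhydrase genes), 19 were called lower and 0 higher. The shares over all genes were 4.56% and 8.08%, and the effectors' median was -3.56. Car1 and Car2, carbonic anhydrases of red cells, had 263 and 648 reads in CMP and 0 and 3 in CD115plusGMP (-6.61 ± 0.47 and -6.58 ± 0.57, limma adjusted p = 2.3e-07 and 1.2e-06). Ermap, an erythroid membrane protein gene, had 310 reads against 0 (-6.86 ± 0.65, adjusted p = 2.7e-06). Ank1, the membrane anchor ankyrin, had 115 against 0 (-5.42 ± 0.51, adjusted p = 2.7e-06), with 862 exon bases shared with the opposite strand. Over the 20 effector genes with fewer than 50 shared exon bases (19 share none and the other shares 1 base) the sum was 685 to 874 CPM in CMP and 47.6 to 69.6 in CD115plusGMP, where 12 of the 20 had no reads. How far cells already in the red cell lineage among the CMP cells set the factors' level was not tested.

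Factors of the granulocyte and monocyte lineages were called higher in 7 of 9 and lower in 0 (median 2.34), against 8.08% and 4.56% of all genes, and 5 of the 9 share at least 50 exon bases with the opposite strand. Cebpa, a driver of granulocyte commitment whose exons share 51 such bases, had 69 reads in CD115plusGMP and 3 in CMP (4.95 ± 0.56, limma adjusted p = 1.7e-05). Klf4, a monocyte factor of the KLF family, had 50 and 5 (3.23 ± 1.004, adjusted p = 0.044). Megakaryocyte and platelet genes, which share several of the 8 factors, were called higher in 2 of 13 and lower in 0. Their sum over 14 genes was 35.0 to 54.3 CPM in CMP and 41.9 to 50.8 in CD115plusGMP. Gp1ba made up most of it, with 31, 20 and 39 reads in CMP and 19, 21 and 14 in CD115plusGMP. In CD115plusGMP 9 of the 14 genes had no reads, and the platelet chemokine gene Ppbp was at 0 reads in both groups.

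The comparison of Neutrophil with CMP sets the cells labelled Neutrophil against those labelled CMP. In Neutrophil, Gata1, Zfpm1, Klf1, Tal1 and Gfi1b were called lower, Nfe2 was called higher, and Lmo2 and Lyl1 were not called. Thus 5 of 8 were lower and 1 higher, against 17.1% and 26.8% of all genes tested (43.9% in either direction). A gene with 0 reads in both groups has a mean log2 value of 0.31 in Neutrophil and -1.06 in CMP. These means differ by more than the 1 needed for a call. The all-gene share called higher therefore includes genes without reads in either group, here and where it is used below. The median was -3.88 over the 8 genes and 0.60 over all genes. This comparison and the one before share the CMP libraries and are not independent.

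Gata1, Klf1, Tal1 and Gfi1b had 0 reads in all 3 Neutrophil libraries, and Zfpm1 had 1 read in replicate 1. Relative to the CMP reads given above, Klf1 was at least 22.8-fold lower (-5.44 ± 1.29, limma adjusted p = 0.0026) and Tal1 at least 14.4-fold lower (-4.76 ± 0.48, adjusted p = 6.1e-07). Gfi1b was at least 7.78-fold lower (-3.94 ± 0.80, adjusted p = 0.00077) and Gata1 at least 7.25-fold lower (-3.82 ± 1.18, adjusted p = 0.015). The Gata1 call was lost without Neutrophil replicate 3 (-3.51, adjusted p = 0.0505). For Zfpm1 the difference was -5.80 ± 0.70 (adjusted p = 4.3e-06), a read ratio of 127 (22.7 to 5041). As a group the Neutrophil libraries were the shallowest by implied library size, so these limits are looser than those for CD115plusGMP.

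Nfe2 was the exception among the 8 genes. It had 7, 3 and 9 reads in CMP (log2 CPM 3.12, 1.73 and 2.93) and 8, 9 and 68 in Neutrophil (4.72, 4.86 and 6.78). Every Neutrophil library was above every CMP library, and Neutrophil replicate 3 was far above the other 2. The difference was 2.86 ± 0.57 (limma adjusted p = 6e-04), a read ratio of 11.1 (6.70 to 19.4), and it was 2.20 without Neutrophil replicate 3 (adjusted p = 0.0027; read ratio 4.36, 2.13 to 8.86). Scaled by the totals of the table instead of the deposited library sizes, it was 1.50 and not called (adjusted p = 0.061).

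Lmo2 had 34, 21 and 49 reads in Neutrophil (log2 CPM 6.74, 6.04 and 6.31), overlapping CMP (difference -0.12 ± 0.32, limma adjusted p = 0.78). It was called lower under quantile normalization (-1.11) and under table totals (-1.48), settings under which the all-gene median shifted by -0.62 and -1.36. Lyl1 had 5, 1 and 14 reads in Neutrophil (4.09, 2.20 and 4.54), overlapping CMP (0.92 ± 0.54, adjusted p = 0.18). Without Neutrophil replicate 2, its lowest library, Lyl1 was called higher (1.63 ± 0.43, adjusted p = 0.0065). These direction calls for Lmo2 and Lyl1 therefore depended on the scaling or on 1 library.

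Around the factors, 10 of 23 complex partners were lower in Neutrophil and 4 higher, against 17.1% and 26.8% of all genes tested. The histone deacetylase gene Hdac2 had 190 reads in CMP and 5 in Neutrophil (-4.41 ± 0.60, limma adjusted p = 1.7e-05), and Ssbp3, another LDB1-binding protein gene, had 43 and 1 (-2.95 ± 0.56, adjusted p = 4e-04). Mafg, a small MAF that pairs with NFE2, was higher like Nfe2 itself, with 22 reads in CMP and 61 in Neutrophil (2.94 ± 0.46, adjusted p = 6.7e-05). Of 19 other regulators, 7 were higher and 4 lower, against 26.8% and 17.1% of all genes tested. Bach1, a heme-sensing repressor that also pairs with small MAFs, was higher by 5.04 ± 0.69 (adjusted p = 1.8e-05), and Klf13 by 3.82 ± 0.43 (2.2e-06), while Hemgn went from 317 reads to 0 (-6.35 ± 0.56, 1.4e-07). Effectors were lower in 18 of 25 and higher in 2, against the same 17.1% and 26.8%. In Neutrophil, 16 of the 20 with fewer than 50 shared exon bases had no reads. Their sum was still 207 to 472 CPM, carried by the other 4.

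Between Neutrophil and CD115plusGMP, 2 of the 8 genes were called higher and 0 lower, against 20.2% and 13.2% of all genes tested (33.4% in either direction). The 2 were Nfe2 (2.05 ± 0.57, limma adjusted p = 0.0092) and Lmo2 (1.04 ± 0.32, adjusted p = 0.018). Gata1, Klf1, Tal1, Gfi1b and Zfpm1 had at most 3 reads in each of the 2 groups, and no difference was detectable at this depth. For Nfe2 the read ratio was 5.54 (3.43 to 9.29), or 2.17 (1.08 to 4.28) without Neutrophil replicate 3, where the difference was 1.39 (adjusted p = 0.047). The Nfe2 call was lost without CD115plusGMP replicate 3 (1.48, adjusted p = 0.057). The Lmo2 call was lost without CD115plusGMP replicate 3 (0.67, adjusted p = 0.094), without Neutrophil replicate 1 (0.85, 0.063) and with the first set alone (0.071). Neither call held under quantile normalization (1.06 for Nfe2, -0.02 for Lmo2) or table totals (1.24 and 0.23). Lyl1 overlapped between the groups (-0.20, adjusted p = 0.84).

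In the order of mean log2 CPM within the first set, Lmo2 stood at 6.48 ± 0.17 (SD, n = 3) in CMP, 6.36 ± 0.35 in Neutrophil and 5.32 ± 0.65 in CD115plusGMP, with the first 2 not separated. Nfe2 ran from Neutrophil (5.45 ± 1.15) over CD115plusGMP (3.40 ± 1.01) to CMP (2.59 ± 0.75), with the last 2 not separated. Lyl1 was at 3.81 ± 0.31 in CD115plusGMP, 3.61 ± 1.24 in Neutrophil and 2.68 ± 0.83 in CMP, and no 2 neighbours differed beyond their spread. For the other 5 genes CMP was first and the remaining 2 groups were at or under 3 reads.

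The comparison of ProNeut with PreNeut stays within the deeper library set and contrasts 2 populations whose labels name neutrophils and state no order between them. Klf1 was the only one of the 8 genes called, and it was higher in ProNeut, against 1.84% of all genes called higher and 0.417% lower (2.26% in either direction). A gene with 0 reads in both groups has mean log2 values of -5.33 in ProNeut and -6.52 in PreNeut, more than 1 apart. How many such genes were called was not counted. The median difference over the 8 genes was 1.36 and over all genes 0.07. Nfe2, Lmo2 and Lyl1 made up most of the level of the 8 genes in both populations.

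Klf1 had 20, 1 and 0 reads in PreNeut replicates 1 to 3 (0.738, 0.0394 and 0 CPM) and 43, 39 and 82 in ProNeut (2.88, 1.86 and 3.17 CPM). All ProNeut libraries were above all PreNeut libraries, and PreNeut replicate 1 was well above the other 2. The difference was 5.59 ± 1.29 on the log2 scale (limma adjusted p = 0.031). In pooled reads the ratio was 24.5 (15.5 to 40.6), and 6.64 (4.20 to 11.0) without PreNeut replicate 3, whose 68171606 reads dominate the pool. The call was lost without any 1 library except PreNeut replicate 1 (adjusted p = 0.0578 to 0.103), with log2(CPM + 1) (1.56) and with quantile normalization (2.66). Leaving out PreNeut replicate 3 gave 3.62, and leaving out PreNeut replicate 1 gave 7.49.

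Gata1 followed the same order without passing the test, with 8, 5 and 0 reads in PreNeut (0.295, 0.197 and 0 CPM) and 33, 15 and 50 in ProNeut (2.21, 0.715 and 1.93 CPM). The groups did not overlap, and the difference was 4.57 ± 1.18 (limma adjusted p = 0.054), or 2.50 without PreNeut replicate 3 (0.052). It was called with the second set alone (adjusted p = 0.022), with voom weights (0.0028) and without PreNeut replicate 1 or 2 (0.013 and 0.028). Its cofactor gene Zfpm1 had 15, 16 and 31 reads in PreNeut (0.553, 0.630 and 0.220 CPM) and 33, 34 and 57 in ProNeut (2.21, 1.62 and 2.21 CPM), with no overlap. The difference of 2.21 ± 0.70 did not pass (adjusted p = 0.14) and was called with the second set alone (0.014) and with voom weights (0.0065).

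Gfi1b set PreNeut replicate 3 apart in the other direction. It had 11, 1 and 165 reads in PreNeut (0.406, 0.0394 and 1.17 CPM) and 26, 21 and 53 in ProNeut (1.74, 1.001 and 2.05 CPM). The groups overlapped because of that library, and the difference was 2.33 ± 0.80 (limma adjusted p = 0.19). Without PreNeut replicate 3 it was 3.30 and called (adjusted p = 0.028). That library thus had 165 reads of Gfi1b and none of Gata1 or Klf1. Of 12410 genes with reads in both other PreNeut libraries, 691 (5.57%) had 0 in replicate 3. Among the 11180 with at least 5 reads in both, as Gata1 had, 224 did.

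Tal1 was the best detected of the 5 red cell factors in these populations. It had 115, 74 and 643 reads in PreNeut (4.24, 2.91 and 4.55 CPM) and 82, 134 and 120 in ProNeut (5.49, 6.39 and 4.64 CPM). Each ProNeut value was above each PreNeut value by a small margin, and the difference of 0.51 ± 0.48 was not called (limma adjusted p = 0.87). In CMP, in the other set, Tal1 stood at 27.7 to 37.8 CPM.

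**Figure D3:**
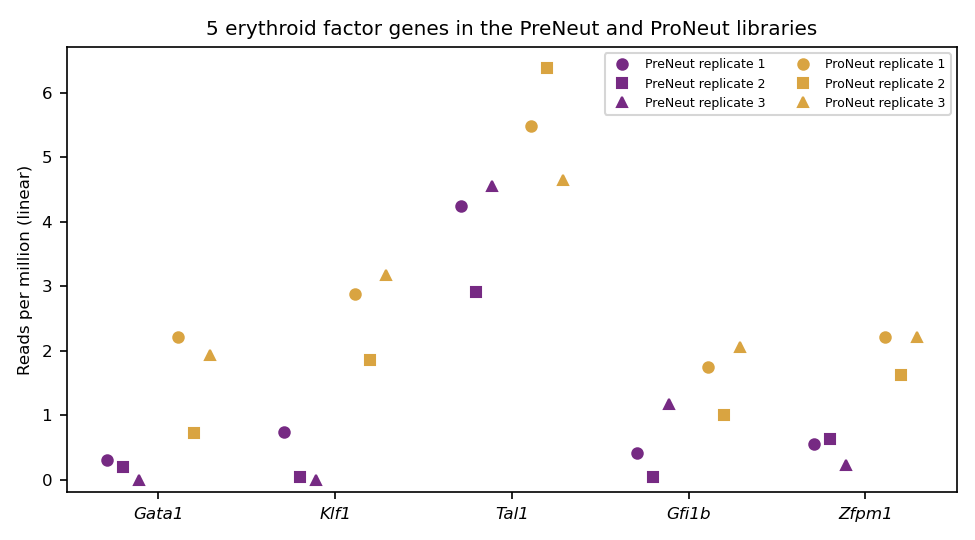
CPM (linear axis) of Gata1, Klf1, Tal1, Gfi1b and Zfpm1 in each PreNeut and ProNeut library, with a marker shape for each replicate number. The ProNeut libraries lie above the PreNeut libraries for 4 of the 5 genes, for Tal1 by only 4.64 against 4.55 CPM. The share of all genes separated in this way was not counted. In Gfi1b PreNeut replicate 3 (1.17 CPM) lies above ProNeut replicate 2 (1.001 CPM). PreNeut replicate 3 is at 0 for Gata1 and Klf1.

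The 3 abundant genes differed by less than 1 on the log2 scale. Nfe2 had 3877, 3396 and 19968 reads in PreNeut (log2 CPM 7.16, 7.06 and 7.14) and 2967, 3744 and 5442 in ProNeut (7.63, 7.48 and 7.72), without overlap. Its difference of 0.49 had an adjusted p of 0.98 in limma with all 15 libraries, whose spread includes the shallow ones, and 0.00042 with the second set alone, but it stayed under the size of 1 needed for a call. Lmo2 was at 5.67, 5.69 and 5.70 in PreNeut and 5.54, 5.60 and 5.53 in ProNeut, again without overlap (-0.13, adjusted p = 1 with 15 libraries). Lyl1 was at 6.29, 6.14 and 6.27 in PreNeut and 6.21, 6.26 and 6.25 in ProNeut, with overlapping groups (0.01, adjusted p = 1). In pooled reads the ProNeut to PreNeut ratios of Nfe2, Lmo2 and Lyl1 were 1.40 (1.37 to 1.43), 0.910 (0.873 to 0.949) and 0.993 (0.961 to 1.03).

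Compared per kilobase of exon, the order of the genes within a population differed between the sets. In CMP the mean was 41.3 CPM per kilobase for Lmo2, 34.9 for Klf1, 29.0 for Zfpm1, 10.2 for Gfi1b, 7.58 for Tal1, 7.09 for Gata1, 3.66 for Lyl1 and 2.03 for Nfe2. In PreNeut it was 46.7 for Nfe2, 41.8 for Lyl1, 23.7 for Lmo2, and 0.891 or less for the other 5, led by Tal1. In ProNeut it was 65.6 for Nfe2, 42.0 for Lyl1, 21.8 for Lmo2, 1.72 for Klf1 and 1.26 for Tal1. Nfe2 was therefore last of 8 in CMP and first in PreNeut and ProNeut, but the sets differ in counting as described above and the difference between them was not tested. In Neutrophil, of the first set, the order was Lmo2 (38.2), Nfe2 (18.0) and Lyl1 (7.58), with the others at 0 or 1 read.

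Of the 25 red cell effector genes, 10 were called higher in ProNeut, 0 lower and 15 neither (median 3.28). Over all genes tested, 1.84% were called higher and 0.417% lower. Cldn13, an erythroblast claudin gene, had 0 reads in all 3 PreNeut libraries and 13, 23 and 59 in ProNeut (6.93 ± 0.72, limma adjusted p = 7.2e-05, at least 99.3-fold, or at least 26.9-fold without PreNeut replicate 3). Rhd, a Rhesus blood group gene, had 1, 0 and 0 reads against 15, 20 and 49 (6.31 ± 0.75, adjusted p = 0.00024). Tspan33, a tetraspanin of red cell precursors, had 0, 0 and 1 against 18, 24 and 33 (6.30 ± 0.52, 1.3e-05). Car1, Car2, Rhag, Ermap and Aqp1 were also among the effectors called. Tfrc, the transferrin receptor gene for iron uptake, was not called and was lower in value, at log2 CPM 5.40, 5.61 and 5.96 in PreNeut and 4.83, 5.25 and 4.99 in ProNeut (-0.63, adjusted p = 0.72). With voom weights 20 of the 25 were called higher, and with log2(CPM + 1) 5 were.

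PreNeut replicate 3 had 96 reads of Rhag, an ammonium channel gene of the Rhesus family, against 1 read in each of the other PreNeut libraries. Over the 20 effectors with fewer than 50 shared exon bases the sum was 89.3 to 108 CPM in PreNeut and 122 to 140 in ProNeut. Cldn13 had 0 reads in PreNeut, and all 20 had reads in ProNeut. Tfrc, Xk and Fech carried most of the PreNeut sum. In PreNeut replicate 1 they were at log2 CPM 5.40, 4.77 and 3.71, and Car2, the next, was at 1.38. In ProNeut replicate 1 they were at 4.83, 4.73 and 2.72, while Car2 was at 4.33 and Car1 at 3.66. How far red cell precursors in the sorted cells set the level of Klf1 and Gata1 was not tested.

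No complex partner (0 of 23) and no other regulator (0 of 19) was called between ProNeut and PreNeut with limma on all 15 libraries. The share over all genes tested was 2.26%. With the second set alone 2 complex partners were called, and with voom weights 3 complex partners and 4 other regulators were. Epor, the erythropoietin receptor gene, had 5, 3 and 0 reads in PreNeut and 8, 5 and 22 in ProNeut (3.45 ± 1.10, adjusted p = 0.15). Sox6, a repressor of embryonic globin, had 6, 4 and 0 against 14, 1 and 6 (2.29 ± 1.26, 0.55), with overlap. Gata2 was at 31, 28 and 112 reads in PreNeut and 9, 12 and 12 in ProNeut (-0.83 ± 0.53, 0.67). Genes of basophils and mast cells, in which GATA2 also acts, were called lower in 4 of 5 tested, against 0.417% of all genes. The other gene tested, Hdc, was not called and was higher in value in ProNeut. Its log2 CPM was 7.01, 6.81 and 6.96 in PreNeut and 7.65, 7.29 and 7.47 in ProNeut. The sum over the 7 genes of this list was 142 to 155 CPM in PreNeut and 158 to 202 in ProNeut. Mcpt8, a basophil protease, had 1566 reads in PreNeut and 28 in ProNeut (-4.22 ± 0.53, limma adjusted p = 0.00041). Of 13 megakaryocyte and platelet genes 0 were called, and their sum was 209 to 223 CPM in PreNeut and 184 to 202 in ProNeut. Most of the sum was Fli1 and Itgb3. Fli1 was at log2 CPM 7.42, 7.43 and 7.50 in PreNeut and 6.98, 7.21 and 7.21 in ProNeut. Itgb3 was at 4.78, 4.68 and 5.16 in PreNeut and 5.48, 5.20 and 4.95 in ProNeut. The platelet gene Pf4 was at 1.01, 0.17 and -0.41 in PreNeut and -0.65, -0.75 and -0.08 in ProNeut, with overlap. Clec1b went the other way, at 0.02, 0.90 and -2.86 in PreNeut and 1.08, 1.81 and 1.32 in ProNeut.

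**Figure D4:**
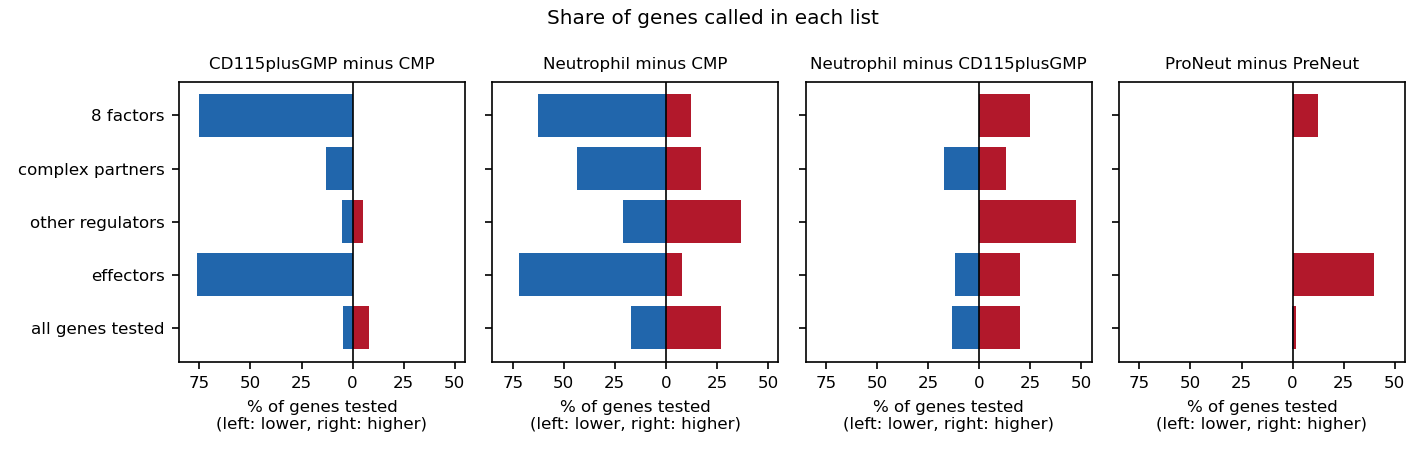
Share of tested genes called lower (left) and higher (right) in each comparison, for the 8 factors, 23 complex partners, 19 other regulators, 25 effectors and all 14161 genes. In CD115plusGMP minus CMP, 6 of 8 factors and 19 of 25 effectors are called lower against 4.56% of all genes. In ProNeut minus PreNeut, 1 of 8 factors and 10 of 25 effectors are called higher against 1.84%.

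The genes most like each factor were found by Pearson correlation over 15 libraries, after the mean of each library set was subtracted, among 5976 candidates. These correlations describe shared group differences and shared libraries. For Gata1 they were Gstm5 (r = 0.98, 178 exon bases shared with the opposite strand), the beta-globin gene Hbb-b1 (0.97) and the red cell membrane gene Epb42 (0.97). For Gfi1b they were the beta-globin gene Hbb-bs (0.98), the anion exchanger gene Slc4a1 (0.98) and Ank1 (0.94), and the globin genes have near-identical copies whose reads may be split. For Klf1 they were Aldh1a1 (0.98), Lmna (0.97) and Sh2d4a (0.97). Each of these 9 genes had 0 reads in CD115plusGMP and in Neutrophil. Where a factor and such a gene both had 0 reads, their log2 values are equal by construction. Over the 6 libraries of the second set alone their r was 0.90 to 0.99. The genes were chosen by r over libraries that include these 6, so this is no separate check.

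Tal1 was most like Slc14a1, the urea transporter gene of red cells (r = 0.97), Ublcp1 (0.97) and Pank4 (0.97). Zfpm1 was most like Sept8 (0.95), the water channel gene Aqp1 (0.94) and Ces2g (0.94). Nfe2 was most like Utrn (0.98), Gsdme (0.96) and Rab14 (0.96), none of which is in the lists of red cell genes used here. Lmo2 was most like Klhl12 (0.91), Fam192a (0.89) and Retreg2 (0.88), and Lyl1 was most like Exoc1 (0.93), Clcn4 (0.91) and Ier3ip1 (0.91). Over the second set alone the same r was 0.53, 0.49 and -0.50 for Slc14a1, Ublcp1 and Pank4, and 0.99, 0.89 and 0.79 for Sept8, Aqp1 and Ces2g. It was 0.63, 0.93 and 0.63 for Utrn, Gsdme and Rab14, -0.52, 0.67 and -0.53 for Klhl12, Fam192a and Retreg2, and 0.21, -0.26 and 0.63 for Exoc1, Clcn4 and Ier3ip1. Pank4, Klhl12, Retreg2 and Clcn4 thus had a negative r there.

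Among the 8 genes themselves, measured the same way over 15 libraries, Gata1 and Klf1 were the closest pair (r = 0.96), followed by Tal1 and Zfpm1 (0.91). Gata1 and Klf1 both had 0 reads in 6 of the 15 libraries, where their log2 values are equal by construction, and for Tal1 and Zfpm1 this was so in 3. Gata1 and Tal1 were at 0.62. Nfe2 was at -0.28 with Gata1, -0.58 with Tal1 and 0.55 with Lyl1. Lyl1 was at -0.60 with Tal1, its relative.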

How the data were processed

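The values, deposited by the authors as log2 CPM, are reads plus 0.5 divided by library size, for 14801 genes and 15 mapped libraries. The GRCm38 build and the tools edgeR 1.30.5, featureCounts 1.22.2 and FastQC 0.11.7 are named in the submitters' processing notes, and the NuGEN Universal Plus mRNA-Seq kit in the labels' protocols. Which aligner, annotation and strand setting were used is not given in the sources used here. Whole reads were recovered from 100% of the deposited values (tolerance 0.001 reads), and the library size they imply was 0.254 to 0.908 times the table total in the first set and 1.93 to 2.24 times in the second. In chi-square comparisons of reads, no 2 replicates agreed within sampling noise.

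Groups followed the sample titles. Genes with log2 CPM above 0 in at least 3 libraries were fitted with limma 3.58.1 (R 4.3.3, empirical Bayes with a mean trend) on all 15 libraries. Benjamini-Hochberg adjustment was over 14161 genes. This filter is lenient, because a gene with 0 reads has log2 CPM 0.63 and 0.62 in Neutrophil replicates 1 and 2. Passing it is no measure of detection. The same fit was tested on simulated data, where most genes called wrongly had few reads. Intervals on read ratios are exact at 95%, and floors are 3 reads over a group; both cover counting error only. Exon lengths and overlaps come from GENCODE M21. The 8 genes and the lists were chosen with earlier results of these data known. From each list up to 4 genes per comparison are named, called ones first and then by size, among genes with at least 10 reads over the groups compared. The 3 genes most like each factor are named too. Other genes were added outside this rule where they clarify a count, a sum or a label. Among them are Rhag and other called effectors, Ppbp and Kit, and in ProNeut Tfrc, Xk, Fech, Gata2, Hdc, Fli1, Itgb3 and Pf4. Some genes of the lists are not reported here. Alternatives were another pseudocount, other filters, quantile scaling, table totals, one set alone, a replicate block, left-out libraries and, chosen after seeing the data, voom weights.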

Additional observations from a re-analysis of the deposited data

How the results depend on the processing

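Of the 8 genes, 6, 6, 2 and 1 were called in CD115plusGMP minus CMP, Neutrophil minus CMP, Neutrophil minus CD115plusGMP and ProNeut minus PreNeut. In Neutrophil minus CD115plusGMP the number was 0 with quantile normalization, 0 with table totals, 1 with the first set alone, 1 with voom weights and 0 to 2 when 1 library was left out. In ProNeut minus PreNeut it was 0 with log2(CPM + 1), 0 with quantile normalization, 3 with the second set alone, 3 with voom weights and 0 to 2 when 1 library was left out. Over all genes the ProNeut minus PreNeut count of 320 became 91 with log2(CPM + 1), 126 with quantile normalization, 903 with the second set alone, 1363 with voom weights and 195 to 405 when 1 library was left out. In CD115plusGMP minus CMP it went from 1790 to 2689 with quantile normalization, when 1421 genes were higher and 1268 lower in place of 1144 and 646. The causes were not tested.

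Among the 8 genes, where at least 1 of the 2 groups compared had over 3 reads, signs changed only for uncalled values of Lyl1 and Lmo2, apart from Lmo2 in Neutrophil minus CD115plusGMP, called at 1.04 and at -0.023 with quantile normalization. Lyl1 in Neutrophil minus CMP was -0.44 with table totals. In ProNeut minus PreNeut Lyl1 was -0.042 with quantile normalization, -0.080 with table totals, -0.012 with voom weights and -0.038 to 0.036 when 1 library was left out. With 1 library left out, Lmo2 in Neutrophil minus CMP was -0.31 to 0.040, and Lyl1 in Neutrophil minus CD115plusGMP was -0.66 to 0.51. Under table totals the all-gene median shifted by -0.56, -1.36, -0.81 and -0.09 in the 4 comparisons, and Gata1, Klf1, Tal1, Gfi1b and Zfpm1 stayed called lower than CMP under it and under quantile normalization.

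With the replicate number as a block, the 8 genes again gave 6, 6, 2 and 1 calls, and all genes 1680, 6106, 4712 and 285. The numbers did not pair the libraries: same-numbered deviations correlated at -0.05 to 0.15 over the 4 comparisons, and 0, 2, 2 and 4 of 6 libraries correlated best with their own number. Count tests with edgeR and DESeq2, planned for recovered reads, were not run because the deposited unit is log2. Depth limits the 5 factors in CD115plusGMP and Neutrophil. There a group of 3 libraries at 0 reads allows up to 3 reads, or 1.64 and 2.35 CPM. The strand assignment of first-set reads was not tested and bears on these counts as well.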
